A study of Rattus norvegicus with 32 samples.

Results

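Hair follicle cells labelled P5 were grown either as a bulk culture, YR219P5_Bulk_V, or as a clone, YR219P5cl7, and neither had been transplanted. These 2 cultures, with 2 arrays each, were chosen by their labels, and they make up 4 of the 32 arrays and 2 of the 16 cultures of the series. The series set thymic epithelial cells beside hair follicle cells, before and after transplantation into the skin of nude mice. The thymic cells, which enter the culture-spread test and the ranges over 16 cultures below, came from rats at embryonic day 16, at postnatal day 1 or aged 4 months. All cells, those of the comparison cultures included, came from Sprague-Dawley rats that carry a constitutive EGFP transgene (act-EGFP in the strain label) and were grown on irradiated 3T3-J2 cells, a mouse fibroblast feeder line, in a 3:1 mixture of DMEM and F12. The labels do not explain P5, and YR219P5cl7 is 1 clone, so it stands for no other clone. The pairs used for comparison were the follicle cultures after a first transplantation (bulk culture YR219P5_RC and clone Clone_54) and the ungrafted thymic cultures from 4-month-old rats (bulk culture PRP4mo_bulk and clone PRP4mo_Cl09). Each has 2 arrays per culture, and no array is shared between pairs.

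A bulk culture holds the descendants of many cells, whereas a clone descends from a single founder. Keratinocytes in culture keep a basal state marked by Krt14 and Tp63 and are joined by adherens junctions, desmosomes and tight junctions, the last built from claudins and occludin. Factors such as Grhl2 and Ovol1 keep epithelial genes active, whereas Zeb1 is a repressor of many of them and is abundant in mesenchymal cells. Cells that leave the epithelial state are known to lose junction genes and to gain genes of the extracellular matrix and of contractile filaments.

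Signals are log2 values, so a difference of 1 is a 2-fold difference, and all differences are given as bulk culture minus clone. With 1 culture of each kind, the p-values from limma's fit to all 32 arrays rest on the spread between arrays of a culture, which may be technical, and they compare these 2 cultures rather than bulk with clonal growth in general. A limma fit to the 16 culture means, which assumes that a lone culture varies as the cultures of the other groups do, gave a further p-value, that of the culture-spread test. Both were adjusted over 15316 probe sets by the Benjamini-Hochberg method. Median signals of the 4 arrays lay between 5.40 and 5.44. Across genes, which are not independent replicates, both arrays of the bulk culture correlated at r = 0.9958, those of the clone at 0.9955, and arrays of different cultures at 0.9846 to 0.9849.

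Relative to the clone, many junction and cornification genes were lower in the bulk culture and many matrix genes were higher. Of the 15316 probe sets, 3001 (19.6%) passed an adjusted p of 0.05, 1317 (8.6%) higher and 1684 (11%) lower in the bulk culture. With a difference of at least 2-fold as well, 667 (4.35%) were called, 354 (2.31%) higher and 313 (2.04%) lower. Counts of list members below are to be set beside these shares. A 4-fold difference was reached by 77 higher and 69 lower probe sets, counted at a log2 difference of 2. By the culture-spread test, 83 probe sets (0.542%) passed, 55 (0.359%) higher and 28 (0.183%) lower.

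**Figure D1:**
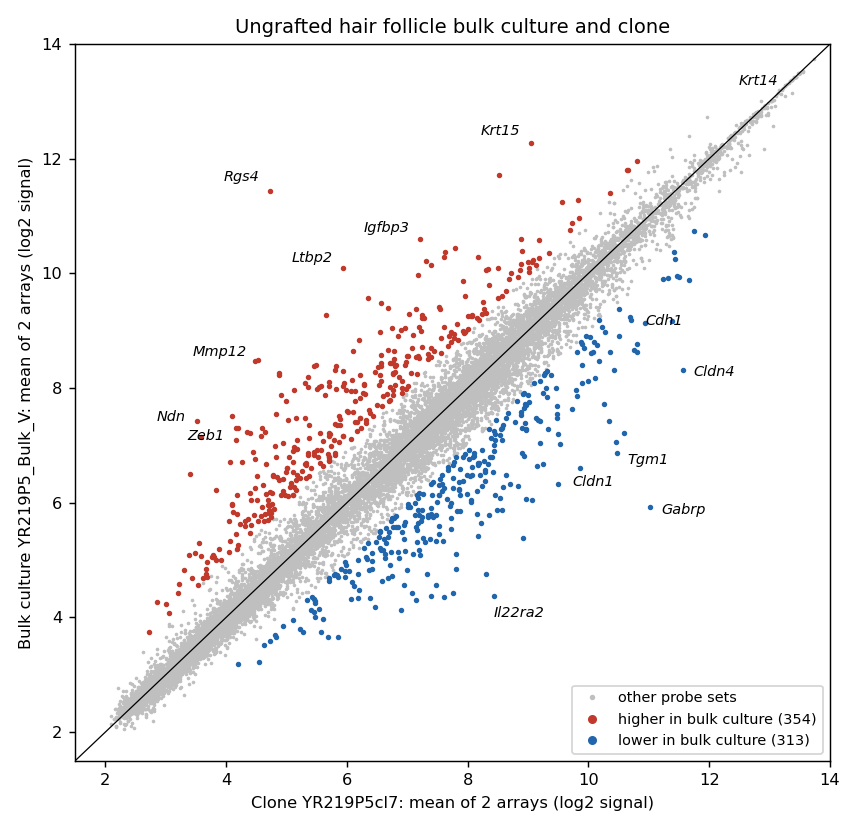
Mean log2 signal of 2 arrays in the clone (horizontal axis) and in the bulk culture (vertical axis) for 15316 probe sets, with a line of equal signal. Probe sets called and past 2-fold are red where higher in the bulk culture (354) and blue where lower (313), and Krt14 lies near the line at high signal in both.

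Jam3, Loxl1, S100a4 and Cds1 were picked as markers of this contrast with earlier results of these data known, so their differences are a description. Jam3, a junctional adhesion molecule, had signals of 8.76 and 9.06 in the bulk culture and 6.70 and 6.98 in the clone (difference 2.07 ± 0.25, SE, adjusted p = 1.52e-06). Loxl1, an enzyme that cross-links elastin, had signals of 7.91 and 8.30 against 5.68 and 5.74 (difference 2.40 ± 0.14, adjusted p = 2.22e-11). S100a4, a calcium-binding protein of motile and mesenchymal cells, had signals of 9.32 and 9.42 against 8.23 and 8.32 (difference 1.09 ± 0.15, adjusted p = 1.01e-05). For all 3 the bulk arrays lay above both clone arrays. Cds1, which makes CDP-diacylglycerol from phosphatidic acid, went the other way, with signals of 5.82 and 5.91 against 7.96 and 7.80 (difference -2.01 ± 0.12, adjusted p = 3.69e-11). Cds1 was lowest in the bulk culture among the 16 cultures and passed by the culture-spread test (0.00392), whereas that p was 0.262 for Jam3, 0.928 for Loxl1 and 0.978 for S100a4.

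Both cultures had bright signals of basal keratinocyte markers. Krt14, the type I keratin of basal keratinocytes, had signals of 13.11 and 13.08 in the bulk culture and 13.25 and 13.28 in the clone, and its difference of -0.17 ± 0.07 did not pass (adjusted p = 0.0954). Krt14 did pass after a second quantile normalization (adjusted p = 0.0259), without dim probe sets (0.038) and with an intensity trend in the fit (0.00247). Tp63, the master regulator of stratified epithelia, had signals of 10.09 and 10.10 against 9.42 and 9.35 (difference 0.71 ± 0.09, adjusted p = 5.4e-06). Krt5 and Sox9, on the same fixed panel, were not analysed here. Of 11 measured basal keratinocyte and hemidesmosome genes, 6 were higher and 0 lower, none by 2-fold, with a median difference of 0.36 against -0.03 over all 14511 genes. Members of the gene lists that fall outside the naming rule, such as the hemidesmosome genes Col17a1 (0.87 ± 0.10, adjusted p = 5.65e-07) and Itgb4 (0.73 ± 0.08, adjusted p = 4.17e-07), are named here and below after their values were seen.

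Genes of tight junctions and of epithelial adhesion were lower in the bulk culture. Cldn1, the main claudin of the epidermal barrier, had signals of 6.57 and 6.62 in the bulk culture and 9.79 and 9.93 in the clone, a 9.58-fold difference (-3.26 ± 0.09, adjusted p = 1.59e-16, culture-spread adjusted p = 0.000126). Cldn4, another claudin, had signals of 8.35 and 8.28 against 11.57 and 11.55 (difference -3.25 ± 0.08, adjusted p = 3.08e-17, culture-spread adjusted p = 0.00332). Ocln, which encodes occludin, had signals of 6.28 and 6.32 against 8.90 and 8.76 (difference -2.53 ± 0.13, adjusted p = 3.07e-12, culture-spread adjusted p = 0.0491). In each of them the bulk arrays lay far below the clone arrays, and the bulk culture was the lowest of the 16 cultures. Cdh1, the E-cadherin of adherens junctions, had signals of 9.22 and 9.16 against 10.66 and 10.77 (difference -1.52 ± 0.09, adjusted p = 8.08e-11, culture-spread adjusted p = 0.00129). Epcam, an epithelial adhesion molecule, had signals of 7.59 and 7.70 against 9.72 and 9.74 (difference -2.09 ± 0.08, adjusted p = 6.02e-14, culture-spread adjusted p = 0.0185). Both were likewise lowest in the bulk culture.

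Of the 33 measured genes of the junction and epithelial regulator list, 24 were lower and 4 higher, with 17 and 2 past 2-fold. Their median difference was -1.10, with quartiles of -1.74 and -0.29, against a median of -0.03 and quartiles of -0.18 and 0.13 over all 14511 genes. By the culture-spread test, 6 members were lower: Cldn1, Ocln, Rab25, Esrp1, Cdh1 and Grhl2. Rab25, a small GTPase of epithelial vesicle traffic, had signals of 8.67 and 8.64 against 10.79 and 10.73 (difference -2.1 ± 0.07, adjusted p = 1.63e-14, culture-spread adjusted p = 0.00203). Grhl2, a transcription factor that maintains the epithelial state, had signals of 6.45 and 6.53 against 8.0 and 7.99 (difference -1.50 ± 0.11, adjusted p = 6.59e-10, culture-spread adjusted p = 0.00219). The epithelial splicing regulators Esrp1 and Esrp2 moved with it, with differences of -1.92 ± 0.09 (adjusted p = 1.17e-12) and -1.10 ± 0.14 (adjusted p = 4.4e-06). Elf3, another epithelial transcription factor, had signals of 4.76 and 3.85 against 7.09 and 7.20 (difference -2.84 ± 0.17, adjusted p = 6.28e-11), the bulk values lying under 5, the level taken here as dim. The membrane protease genes Prss8 and St14 (-1.94 ± 0.12 and -1.34 ± 0.10) and Spint1, which encodes an inhibitor of such proteases (-1.79 ± 0.08), were lower too, with adjusted p-values of 6.74e-11, 1.86e-09 and 8.38e-13.

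The lower signal did not extend to every junction gene. Perp, Gjb6 and Dsc3, genes of desmosomes and gap junctions, had differences of -0.03 ± 0.09, 0.02 ± 0.17 and 0.14 ± 0.10 that did not pass (adjusted p = 0.912, 0.979 and 0.424). The plaque genes Jup and Pkp1 were lower by less than 2-fold (-0.53 ± 0.09 and -0.41 ± 0.08, adjusted p = 2e-04 and 0.000323). Jam3 and its relative Jam2 (1.00 ± 0.16, adjusted p = 9.02e-05), the atypical cadherin Cdh13 (1.82 ± 0.13, adjusted p = 4.19e-10) and the connexin Gja1 (0.77 ± 0.09, adjusted p = 1.82e-06) were higher.

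**Figure D2:**
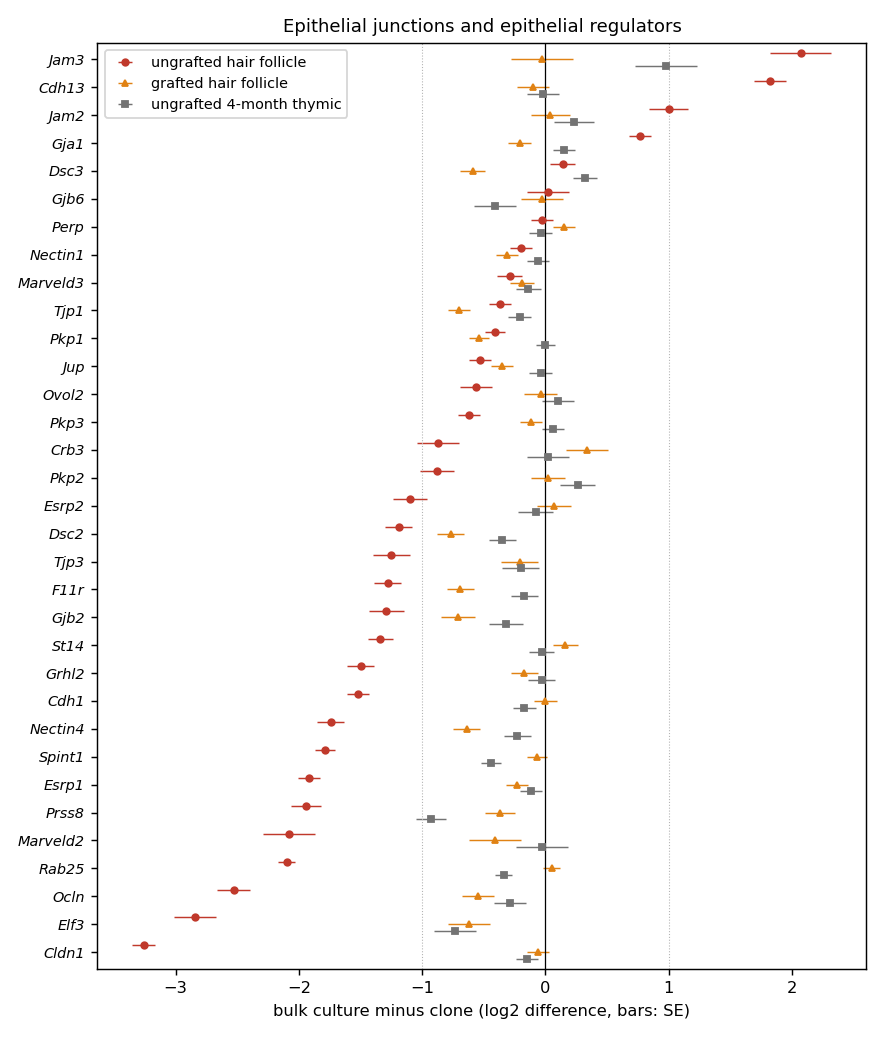
Bulk minus clone difference (log2, bars SE) of the 33 measured junction and epithelial regulator genes in the ungrafted follicle pair (red), the grafted follicle pair (orange) and the 4-month thymic pair (grey), with dotted lines at 2-fold. Cldn1 lies at -3.26 in red and at -0.06 and -0.15 in orange and grey.

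Promoters of 4 of the lower genes are printed to show a short sequence held by some of the lower genes. Each holds the 250 bases before the RefSeq start on build GRCr8, written on the strand of the gene, and capitals mark CACCTG on either strand, the E-box that Zeb1 and the Snail factors are known to bind. The regions are chr2:33441199-33441448 (minus strand) for Ocln, chr2:176304222-176304471 (minus) for Rab25, chr6:12649679-12649928 (minus) for Epcam and chr15:33174268-33174517 (minus) for Tgm1, a cornification gene described below.
Ocln: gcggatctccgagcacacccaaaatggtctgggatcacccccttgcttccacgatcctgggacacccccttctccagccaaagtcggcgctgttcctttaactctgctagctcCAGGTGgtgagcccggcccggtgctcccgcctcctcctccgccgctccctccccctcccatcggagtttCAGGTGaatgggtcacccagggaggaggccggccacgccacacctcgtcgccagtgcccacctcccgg
Rab25: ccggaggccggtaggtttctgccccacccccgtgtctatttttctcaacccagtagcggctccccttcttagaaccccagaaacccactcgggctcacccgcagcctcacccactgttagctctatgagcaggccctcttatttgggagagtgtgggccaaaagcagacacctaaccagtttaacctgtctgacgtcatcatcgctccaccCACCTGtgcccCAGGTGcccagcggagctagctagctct
Epcam: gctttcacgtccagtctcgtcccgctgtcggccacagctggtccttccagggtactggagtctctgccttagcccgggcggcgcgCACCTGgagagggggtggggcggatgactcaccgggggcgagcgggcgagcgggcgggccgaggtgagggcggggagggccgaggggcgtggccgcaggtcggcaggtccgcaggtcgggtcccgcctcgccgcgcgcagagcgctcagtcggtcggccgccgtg
Tgm1: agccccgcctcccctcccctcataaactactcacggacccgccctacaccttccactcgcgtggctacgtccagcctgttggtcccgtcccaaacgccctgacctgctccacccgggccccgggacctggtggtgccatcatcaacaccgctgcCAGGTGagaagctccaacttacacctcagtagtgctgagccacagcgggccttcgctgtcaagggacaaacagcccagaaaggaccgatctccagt

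The motif begins 137 and 68 bases before the start of Ocln, 39 and 28 before that of Rab25, 165 before that of Epcam and 96 before that of Tgm1. Over 300 bases, 250 before and 50 after the start, promoters were found for 11954 of the 14512 tested gene IDs, and 18.6% of them held CACCTG on either strand. Among genes called lower by 2-fold, 83 of 236 promoters (35.2%) held it, and among those called higher by 2-fold, 42 of 277 (15.2%). Without the 2-fold limit the shares lay nearer to that of all genes, at 285 of 1343 (21.2%) for genes called lower and 152 of 1048 (14.5%) for those called higher. In the junction list 8 of 11 promoters of genes lower by 2-fold held it. Those of Cldn1, Marveld2 and Nectin4 did not hold it, and Cdh1, Esrp1, Esrp2, Grhl2, Prss8 and St14 were not matched. In the matrix list 2 of 9 promoters of genes higher by 2-fold (22.2%) held it as well. For comparison, CAGCTG, another E-box, was in 16.1% of all tested promoters, 16.5% of the lower and 17.0% of the higher set, and CACGTG in 7.88%, 6.36% and 5.78%. Mean GC content was 57.0%, 58.1% and 61.0% in the same order. The motif was looked for after the differences were known, and a match is a description, not a binding site.

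Zeb1 was high in the ungrafted bulk culture alone. Its signals were 7.15 and 7.05 in the bulk culture and 4.38 and 3.94 in the clone, a 7.67-fold difference (2.94 ± 0.16, adjusted p = 9.64e-12, culture-spread adjusted p = 0.00107) against a dim signal in the clone. On the grafted follicle arrays Zeb1 lay at 4.43 and 4.24 in the bulk culture and 4.20 and 4.12 in the clone. The thymic culture means ran from 4.10 to 4.97 before and from 3.92 to 4.46 after grafting, so that Zeb1 was dim in the other 15 cultures. At these dim levels it was also called higher in the 4-month thymic bulk culture than in its clone (4.97 against 4.13, difference 0.84 ± 0.16). Some other repressors of epithelial genes did not pass: Snai2 differed by 0.03 ± 0.08, Snai1 by 0.31 ± 0.26, Twist1 by 0.11 ± 0.26 and Zeb2 by -0.01 ± 0.27 (adjusted p = 0.907, 0.527, 0.886 and 0.996). Whether any of these factors or Zeb1 acts on the lower genes was not tested. Ovol1 and Ovol2, epithelial factors that act against Zeb1, were lower (-1.88 ± 0.17 and -0.56 ± 0.13, adjusted p = 2.45e-08 and 0.00227).

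Genes of the cornified envelope and of suprabasal keratinocytes were lower in the bulk culture. Tgm1, the transglutaminase that cross-links the envelope, had signals of 6.97 and 6.75 in the bulk culture and 10.43 and 10.50 in the clone, a 12.2-fold difference (-3.61 ± 0.08, adjusted p = 3.08e-17). Scel, the envelope protein sciellin, had signals of 6.13 and 6.04 against 8.44 and 8.64 (difference -2.45 ± 0.15, adjusted p = 4.28e-11). Evpl, which encodes envoplakin, had signals of 6.76 and 6.88 against 8.94 and 8.92 (difference -2.11 ± 0.09, adjusted p = 4.7e-13). All 3 were lowest in the bulk culture among the 16, yet none passed by the culture-spread test (0.149, 0.262 and 0.293). Cnfn, cornifelin, had signals of 5.74 and 6.0 against 8.56 and 8.41 (difference -2.62 ± 0.22, adjusted p = 8.99e-09). Of the 23 measured epidermal differentiation genes, 12 were lower and 1 higher, with 9 and 1 past 2-fold and a median difference of -0.53. Grhl3, a factor of terminal differentiation (-2.05 ± 0.11, adjusted p = 1.19e-11), was the member that also passed by the culture-spread test (0.0116). The suprabasal keratin Krt10 was lower (-1.83 ± 0.16, adjusted p = 2.41e-08), and Calml3, a calmodulin-like protein of epithelia, was the higher member (1.00 ± 0.15, adjusted p = 1.96e-05). Ivl, which encodes involucrin, did not differ beyond the spread, at means of 4.45 and 4.49 (adjusted p = 0.95).

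**Figure D3:**
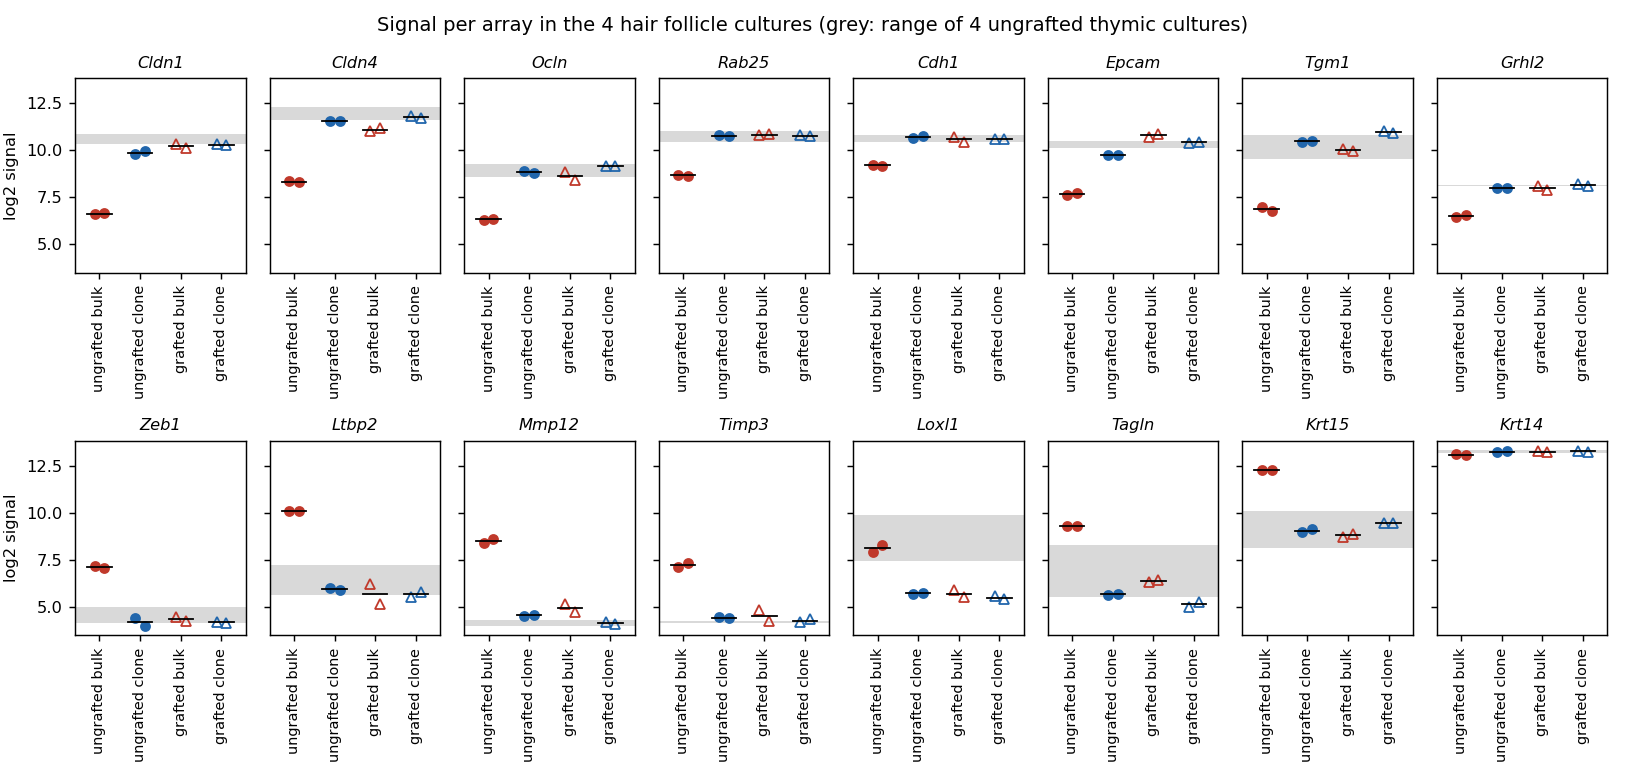
Log2 signal on each array (points; bars are means of 2 arrays) of 16 genes in the 4 hair follicle cultures, with the range of the 4 ungrafted thymic culture means in grey. The ungrafted bulk culture lies below the other follicle cultures in the upper row and above them in the lower row except for Krt14.

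Genes of the extracellular matrix and its enzymes were higher in the bulk culture. Mmp12, a secreted metalloproteinase, had signals of 8.37 and 8.62 in the bulk culture and 4.52 and 4.53 in the clone (difference 3.97 ± 0.18, adjusted p = 8.11e-13, culture-spread adjusted p = 0.00404). Timp3, a metalloproteinase inhibitor bound to the matrix, had signals of 7.13 and 7.31 against 4.43 and 4.37 (difference 2.82 ± 0.20, adjusted p = 5.91e-10, culture-spread adjusted p = 0.00207). Both were highest in the bulk culture among the 16, and in the clone both were dim. Mmp3, a stromelysin of wounds, had signals of 11.72 and 11.73 against 8.45 and 8.59 (difference 3.20 ± 0.15, adjusted p = 1.27e-12). Col12a1, a collagen that binds to fibrils, had signals of 10.36 and 10.22 against 7.59 and 7.61 (difference 2.69 ± 0.15, adjusted p = 9.93e-12). Has2, which makes hyaluronan, had signals of 9.37 and 9.44 against 6.82 and 6.55 (difference 2.72 ± 0.16, adjusted p = 2.26e-11). Mmp3 and Col12a1 were also highest in the bulk culture, but Has2 was higher still in the 4 ungrafted thymic cultures, whose means ran from 9.54 to 10.90. Mmp3, Col12a1 and Has2 did not pass by the culture-spread test (0.911, 0.211 and 0.839).

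Of the 37 measured matrix genes, 21 were higher and 2 lower, with 12 and 0 past 2-fold and a median difference of 0.50. By the culture-spread test 2 members were higher, Mmp12 and Timp3, and 0 lower. Timp1, a secreted inhibitor, differed by 2.0 ± 0.11 (adjusted p = 1.86e-11), the collagen lysyl hydroxylase Plod2 by 1.76 ± 0.16 (adjusted p = 3.11e-08) and the protease Adamts1 by 1.86 ± 0.17 (adjusted p = 4.32e-08). The lower members were Timp2 (-0.63 ± 0.12, adjusted p = 0.000508) and Loxl4 (-0.38 ± 0.11, adjusted p = 0.0223). Loxl1 was thus higher without Lox (-0.06 ± 0.16, adjusted p = 0.908) or elastin itself, Eln (0.04 ± 0.26, adjusted p = 0.968).

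The promoters of the metalloproteinases Mmp3 and Mmp12, both on chromosome 8, are printed because each holds TGANTCA, the core of sites for AP-1. The 120 bases before the start are shown, at chr8:12925161-12925280 (plus strand) for Mmp3 and chr8:12866532-12866651 (plus) for Mmp12, with the motif in capitals 71 and 87 bases before the start.
Mmp3: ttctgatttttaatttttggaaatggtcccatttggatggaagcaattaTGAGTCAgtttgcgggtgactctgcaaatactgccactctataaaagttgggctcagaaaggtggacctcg
Mmp12: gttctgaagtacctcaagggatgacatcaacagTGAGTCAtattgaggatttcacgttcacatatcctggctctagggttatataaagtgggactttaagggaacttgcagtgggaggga

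On either strand TGANTCA was in 6.24% of all tested promoters, 6.14% of those higher by 2-fold and 10.6% of those lower by 2-fold, so that the higher genes held it at the share of all genes.

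**Figure D4:**
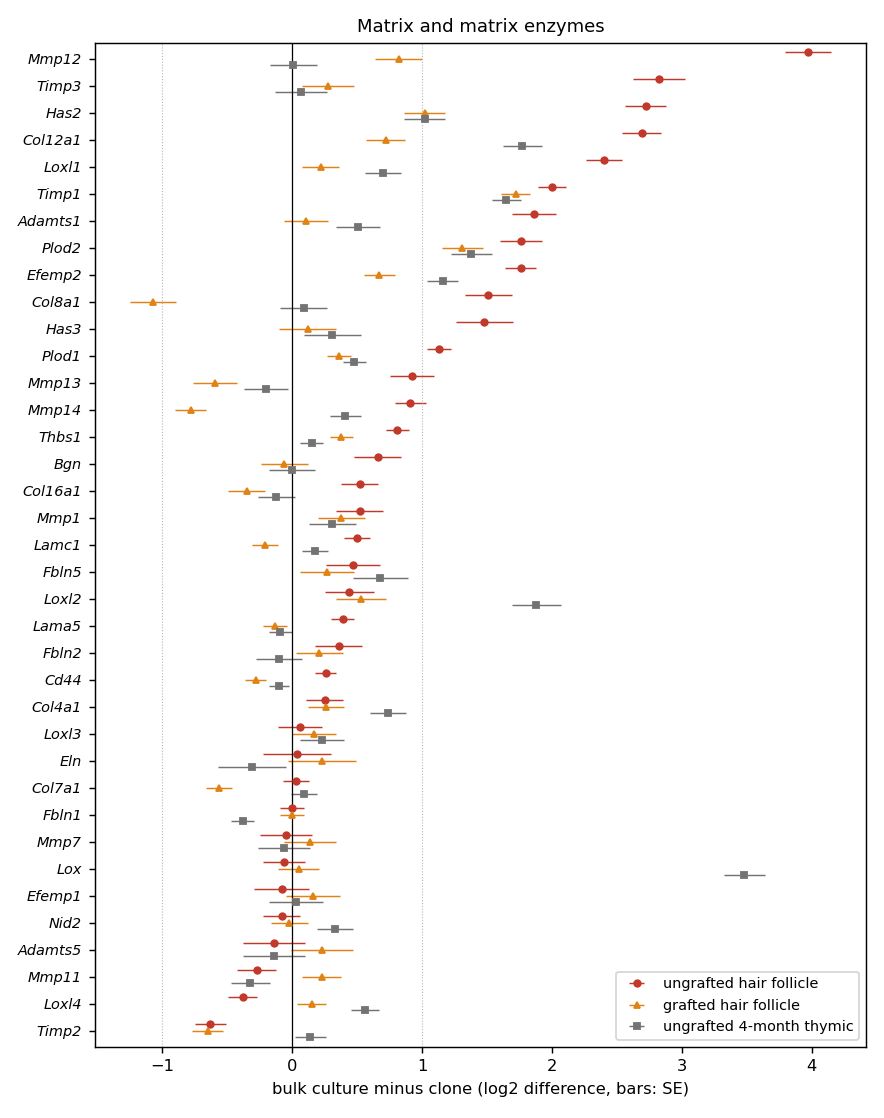
Bulk minus clone difference (log2, bars SE) of the 37 measured matrix genes in the ungrafted follicle pair (red), the grafted follicle pair (orange) and the 4-month thymic pair (grey), with dotted lines at 2-fold. Timp1 lies past 2-fold in all 3 pairs, Mmp12 and Timp3 in the ungrafted follicle pair only.

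Part of the mesenchymal and contractile genes was higher. Tagln, an actin-binding protein of contractile cells, had signals of 9.27 and 9.28 in the bulk culture and 5.62 and 5.68 in the clone (difference 3.62 ± 0.16, adjusted p = 3.1e-13). Thy1, a surface glycoprotein of fibroblasts and other cells, had signals of 6.83 and 6.72 against 4.61 and 4.35 (difference 2.30 ± 0.19, adjusted p = 6.37e-09). Vim, the filament protein vimentin, had signals of 11.79 and 11.84 against 10.59 and 10.70 (difference 1.16 ± 0.13, adjusted p = 7.76e-07). All 3 were highest in the bulk culture among the 16, though Vim was also high in the clone. Tagln was also called higher past 2-fold in the bulk cultures of the grafted follicle and thymic pairs (1.25 and 2.77). Sparc, a matrix glycoprotein, had signals of 11.22 and 11.28 against 9.57 and 9.57 (difference 1.68 ± 0.11, adjusted p = 8.89e-11). Tagln, Thy1, Vim and Sparc did not pass by the culture-spread test (0.303 for Tagln and 0.163 for Thy1). Of 28 measured fibroblast and mesenchymal genes, 9 were higher and 1 lower, with 7 and 0 past 2-fold and a median difference of 0.23. By the culture-spread test 1 member was higher, Zeb1, and 0 lower. The 1 lower member of the main test was Cdh2, the N-cadherin gene (-0.83 ± 0.17, adjusted p = 0.00093).

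The other 18 members did not pass, among them several genes that are abundant in fibroblasts. Lum, Dcn and Postn had means of 2.48, 3.90 and 3.25 in the bulk culture and 2.46, 4.08 and 3.37 in the clone, all dim. Pdgfra was at 4.95 and 5.07, and the fibrillar collagen genes Col1a1 and Col3a1 differed by 0.27 ± 0.19 and 0.33 ± 0.26 (adjusted p = 0.444 and 0.514). Acta2, the smooth muscle actin gene, was at 8.25 in the bulk culture and 8.25 in the clone. The summed level of the whole list, as log2 of the summed linear signals, was higher in the bulk culture, at 13.78 and 13.81 on its arrays and 12.86 and 12.88 on the clone arrays. What share of these signals came from the feeder cells was not tested. In bulk samples fewer cells of a type and less RNA per cell cannot be told apart. Of 43 measured markers of blood, endothelial, muscle, nerve and pigment cells, 31 were dim in both cultures, with medians of 4.51 in the bulk culture and 4.48 in the clone.

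Among keratins and follicle stem cell genes, Krt15 stood out. Krt15, a keratin of the hair follicle bulge, had signals of 12.27 and 12.29 in the bulk culture and 8.98 and 9.11 in the clone (difference 3.23 ± 0.12, adjusted p = 2.13e-14). Krt19, a keratin of simple epithelia and of the bulge, had signals of 8.39 and 8.43 against 5.37 and 5.60 (difference 2.93 ± 0.14, adjusted p = 2.2e-12). Neither passed by the culture-spread test (0.649 and 1), and the grafted thymic means ran from 8.96 to 12.39 for Krt15 and from 5.79 to 11.21 for Krt19. Dkk3, a secreted protein of the bulge, had signals of 6.75 and 6.68 against 4.34 and 3.77 (difference 2.66 ± 0.19, adjusted p = 5.12e-10). Of 18 measured follicle stem cell and placode genes, 6 were higher and 1 lower, with 4 and 0 past 2-fold and a median difference of 0.06. Over all probe sets, 8.6% were higher and 11% lower. The count of higher follicle genes was 4 without bulk replicate 2 or without clone replicate 2. Lhx2, a regulator of follicle stem cells, had signals of 7.63 and 7.54 against 6.97 and 6.87 (difference 0.67 ± 0.19, adjusted p = 0.0141), a call lost without bulk replicate 1 (0.0989), bulk replicate 2 (0.0505) or clone replicate 2 (0.0991). Lgr5, a receptor of active follicle stem cells, was dim in both cultures, at 4.79 and 4.94 against 4.68 and 4.67 (adjusted p = 0.797). The Wnt target Axin2 and the placode factor Lef1 did not pass (-0.09 ± 0.13 and 0.06 ± 0.13, adjusted p = 0.793 and 0.89).

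Gata3, a transcription factor of hair follicle and epidermis, had signals of 9.87 and 9.78 against 9.32 and 9.32 (difference 0.50 ± 0.12, adjusted p = 0.00471), a call lost without bulk replicate 1 (0.0568). Krt8, a keratin of simple epithelia, had signals of 6.63 and 6.71 against 7.19 and 7.05 (difference -0.45 ± 0.12, adjusted p = 0.011), and Lgals7, the keratinocyte lectin galectin-7, had signals of 10.84 and 10.81 against 11.25 and 11.31 (difference -0.46 ± 0.13, adjusted p = 0.0114). Both calls ended after arrays were centred on their medians (0.0503 for Krt8 and 0.0644 for Lgals7). They also ended without bulk replicate 1 (0.0945 and 0.0545), for Krt8 without clone replicate 1 (0.123) or with the 8 follicle arrays alone (0.192), and for Lgals7 without bulk replicate 2 (0.0718) or clone replicate 2 (0.0845). The sizes moved little when any of the 4 arrays was left out, from 0.62 to 0.72 for Lhx2, 0.45 to 0.55 for Gata3, -0.53 to -0.38 for Krt8 and -0.48 to -0.43 for Lgals7, while the adjusted p crossed 0.05.

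The largest difference of all named genes was that of Rgs4, which shortens signals of G proteins. Rgs4 had signals of 11.43 and 11.43 in the bulk culture and 4.59 and 4.87 in the clone, a difference of 6.70 ± 0.19 (adjusted p = 2.88e-16, culture-spread adjusted p = 0.0533) against a dim signal in the clone, while its ungrafted thymic means ran from 6.20 to 9.96. Ltbp2, a matrix protein of the latent TGF-beta binding family, had signals of 10.09 and 10.11 against 6.0 and 5.88 (difference 4.16 ± 0.21, adjusted p = 2.71e-12, culture-spread adjusted p = 0.00392). Ndn, the imprinted gene of the growth suppressor necdin, had signals of 7.27 and 7.59 against 3.68 and 3.34 (difference 3.92 ± 0.16, adjusted p = 2.02e-13, culture-spread adjusted p = 0.00246). Both were highest in the bulk culture among the 16. Ccdc8 (4.00 ± 0.21), the membrane skeleton gene Epb41l3 (3.39 ± 0.21) and Pros1, which encodes the anticoagulant protein S (3.35 ± 0.16), were also among the 12 largest and passed by the culture-spread test (0.00663, 0.0188 and 0.0149). Cd48, a surface protein of blood cells (3.57 ± 0.23), and the nuclear body gene Sp140 (3.42 ± 0.16) did not (0.34 and 0.211).

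Among the lower genes Gabrp, a GABA receptor subunit of epithelia, differed most. Gabrp had signals of 5.99 and 5.86 against 11.03 and 11.01 (difference -5.10 ± 0.12, adjusted p = 3.08e-17, culture-spread adjusted p = 0.0583). Il22ra2, a soluble receptor that binds interleukin-22, had signals of 4.47 and 4.28 against 8.38 and 8.48 (difference -4.05 ± 0.17, adjusted p = 2.86e-13, culture-spread adjusted p = 0.718). For this gene the clone was the highest of the 16 cultures and the bulk culture the lowest. Casp12, a caspase of the inflammatory family, had signals of 4.55 and 4.97 against 8.25 and 8.35 (difference -3.54 ± 0.15, adjusted p = 1.92e-13, culture-spread adjusted p = 0.0122). Msln, which encodes the surface protein mesothelin, had signals of 6.99 and 7.12 against 10.39 and 10.54 (difference -3.41 ± 0.08, adjusted p = 3.08e-17, culture-spread adjusted p = 0.732). The other large decreases were those of Gpr15lg (-3.54), the chloride channel regulator Clca2 (-3.37), the neurite protein gene Nrn1 (-3.34), Pof1b (-3.24) and the claudin Cldn3 (-3.17). Tspan7, Mal2 and Hcar2, which encode membrane proteins, were lower by the culture-spread test as well (-2.91 ± 0.08, -2.91 ± 0.09 and -2.75 ± 0.20, culture-spread adjusted p = 0.0185, 0.00493 and 0.0185).

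Genes of the IGF axis moved in both directions. Igfbp3, a binding protein that holds IGFs outside cells, had signals of 10.67 and 10.54 in the bulk culture and 7.21 and 7.20 in the clone (difference 3.39 ± 0.13, adjusted p = 6.98e-14, culture-spread adjusted p = 0.428). Igfbp4, another binding protein, had signals of 9.02 and 8.93 against 6.64 and 6.45 (difference 2.43 ± 0.23, adjusted p = 6.6e-08, culture-spread adjusted p = 5.87e-05). Igfbp2, by contrast, had signals of 6.17 and 5.95 against 7.60 and 7.73 (difference -1.6 ± 0.12, adjusted p = 1.17e-09). Of the 13 measured genes of the axis, 6 were higher and 3 lower, against 8.6% and 11% of all probe sets. Igf2bp1, an RNA-binding protein of growing tissues, had signals of 5.85 and 5.90 against 8.61 and 8.54 (difference -2.70 ± 0.11, adjusted p = 7.76e-14). The ligands Igf1 and Igf2 did not pass (0.19 ± 0.17 and -0.06 ± 0.20, adjusted p = 0.595 and 0.934).

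Of 35 measured genes of the BMP, activin and TGF-beta pathways, 13 were higher and 4 lower, with 5 and 1 past 2-fold. Besides Ltbp2, the ligand Tgfb2 (1.59 ± 0.20, adjusted p = 3.46e-06), the latent binding protein Ltbp1 (1.11 ± 0.10, adjusted p = 1.99e-08) and the activin antagonist Fst (1.02 ± 0.09, adjusted p = 3.01e-08) were higher. Tgfbi, a matrix protein named for its induction by TGF-beta, was lower (-1.70 ± 0.14, adjusted p = 3.9e-09). Of 25 EGF and FGF genes, 6 were higher and 7 lower. The receptors Fgfr1 (1.33 ± 0.12) and Fgfr2 (1.43 ± 0.16) were higher (adjusted p = 2.82e-08 and 7.52e-07), and the receptor Erbb3 (-1.6 ± 0.13) and Fgfbp1, a carrier of FGFs (-2.22 ± 0.08), were lower (adjusted p = 6.19e-09 and 4.42e-14). Of 37 Wnt genes, 5 were higher and 3 lower, near the shares of 8.6% and 11% over all probe sets, and 0 or 1 were lower without any 1 of the 4 arrays or after either rescaling. The 3 higher by 2-fold were the ligands Wnt5a (1.39 ± 0.11) and Wnt7b (1.65 ± 0.11) and the Wnt5a receptor Ror1 (1.19 ± 0.12), with adjusted p-values of 5.75e-09, 1.39e-10 and 1.4e-07, and only Ror1 among them passed by the culture-spread test (0.00663). Of 19 Notch genes 2 were higher and 4 lower, or 2 lower without bulk replicate 1, without clone replicate 2 or after centring, against the same shares of 8.6% and 11% over all probe sets. The ligand Jag1 (1.16 ± 0.08) and the regulator Dtx4 (-1.57 ± 0.14) were the members past 2-fold.

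Integrins, the receptors for the matrix, changed in both directions. Of 12 measured integrin genes outside the basal keratinocyte list, 4 were higher and 2 lower, against 8.6% and 11% of all probe sets. The collagen receptor subunits Itga1 and Itga2 were higher (1.67 ± 0.16 and 1.59 ± 0.14, adjusted p = 9.11e-08 and 3.08e-08), as was Itgb5 (1.33 ± 0.10, adjusted p = 8.39e-10). Itgb6, a subunit of an epithelial integrin that activates TGF-beta, was lower (-1.25 ± 0.13, adjusted p = 2.93e-07). Of 23 actin and YAP target genes, 11 were higher and 2 lower, or 7 higher after centring of the arrays or without clone replicate 1. Myl9, a myosin light chain (1.09 ± 0.13), and the receptor Axl (1.07 ± 0.12) were past 2-fold. Ccn1 and Lats2 were higher by less than 2-fold (0.37 ± 0.09 and 0.42 ± 0.11, adjusted p = 0.00582 and 0.00988), and Amotl2 was lower (-0.3 ± 0.10, adjusted p = 0.0363). The YAP targets Ccn2 and Ankrd1 did not pass (-0.17 ± 0.09 and -0.08 ± 0.14), and Ankrd1 was dim in both cultures.

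Cell cycle genes were lower by small amounts. Of 35 measured, 23 were lower and 3 higher (5 higher after a second quantile normalization), 1 of the lower by 2-fold, with a median difference of -0.51. Rrm2, a subunit of ribonucleotide reductase active in S phase, had signals of 10.70 and 10.77 against 11.72 and 11.76 (difference -1.0 ± 0.07, adjusted p = 1.24e-09). The mitotic genes Cdc20 (-0.98 ± 0.10) and Cdk1 (-0.76 ± 0.10) were lower (adjusted p = 1.16e-07 and 8.17e-06), and the D cyclins Ccnd1 (0.74 ± 0.08) and Ccnd2 (0.90 ± 0.08) were higher (adjusted p = 2.18e-07 and 1.31e-08). None of the 35 passed by the culture-spread test, by which 879 of all probe sets had an unadjusted p under 0.05. The cell cycle inhibitors Cdkn1a and Cdkn2b went opposite ways (-1.0 ± 0.09 and 1.20 ± 0.10, adjusted p = 1.84e-08 and 7.49e-09).

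Some lipid genes were lower as well, though at least 9 members of each list did not pass. Over all probe sets, 8.6% were higher and 11% lower. Of 28 measured genes of phosphatidic acid and phosphoinositide metabolism, the pathway of Cds1, 12 were lower and 1 higher. The count of lower genes was 8 without bulk replicate 1 and 7 without clone replicate 2. Beside Cds1, the PI3-kinase subunit Pik3cb (-1.47 ± 0.12, adjusted p = 3.62e-09) and the phosphatase Inpp5d (-1.31 ± 0.16, adjusted p = 2.71e-06) were past 2-fold, while Cds2, the paralogue of Cds1, did not pass (-0.15 ± 0.11, adjusted p = 0.468). Of 26 sterol and fatty acid synthesis genes, 13 were lower and 1 higher, none by 2-fold. Of 18 retinoid genes, 8 were lower and 1 higher, or 5 lower without bulk replicate 1 or without clone replicate 2, and the retinol carrier Rbp2 differed most (-2.18 ± 0.10, adjusted p = 8.67e-13).

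Immune and stress genes were split, and the counts of this paragraph stand against shares of 8.6% higher and 11% lower over all probe sets. Of 30 measured cytokine and chemokine genes, 4 were higher and 9 lower, with 4 and 5 past 2-fold. The chemokines Cxcl14 and Cxcl6 were higher (1.76 ± 0.22 and 1.59 ± 0.20, adjusted p = 3.29e-06 and 4.1e-06), and Cxcl16, a chemokine anchored in the membrane, was lower (-2.04 ± 0.07, adjusted p = 8.96e-15, culture-spread adjusted p = 0.0188). Of 23 interferon response genes 6 were lower and 3 higher, or 1 higher without clone replicate 1, with Usp18 (-2.28 ± 0.18) and Oasl (-1.80 ± 0.18) differing most. Of 14 serpins, inhibitors of proteases, 6 were lower and 3 higher, and Serpinb10 passed by the culture-spread test (-1.57 ± 0.09, culture-spread adjusted p = 0.0253). Of 30 genes of glutathione, P450 and conjugation enzymes, 10 were lower and 4 higher. The glutathione transferase Gstm1 was higher (2.80 ± 0.13, adjusted p = 8.25e-13), and Cyp2s1, a P450 of epithelia, was lower by the culture-spread test as well (-1.96 ± 0.09, culture-spread adjusted p = 0.0144). Of the 22 measured Hox genes, which record position along the body, limma called 0 in either direction, against 19.6% of all probe sets. However, 15 of the 22 were dim in both cultures, where a difference could hardly be seen.

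**Figure D5:**
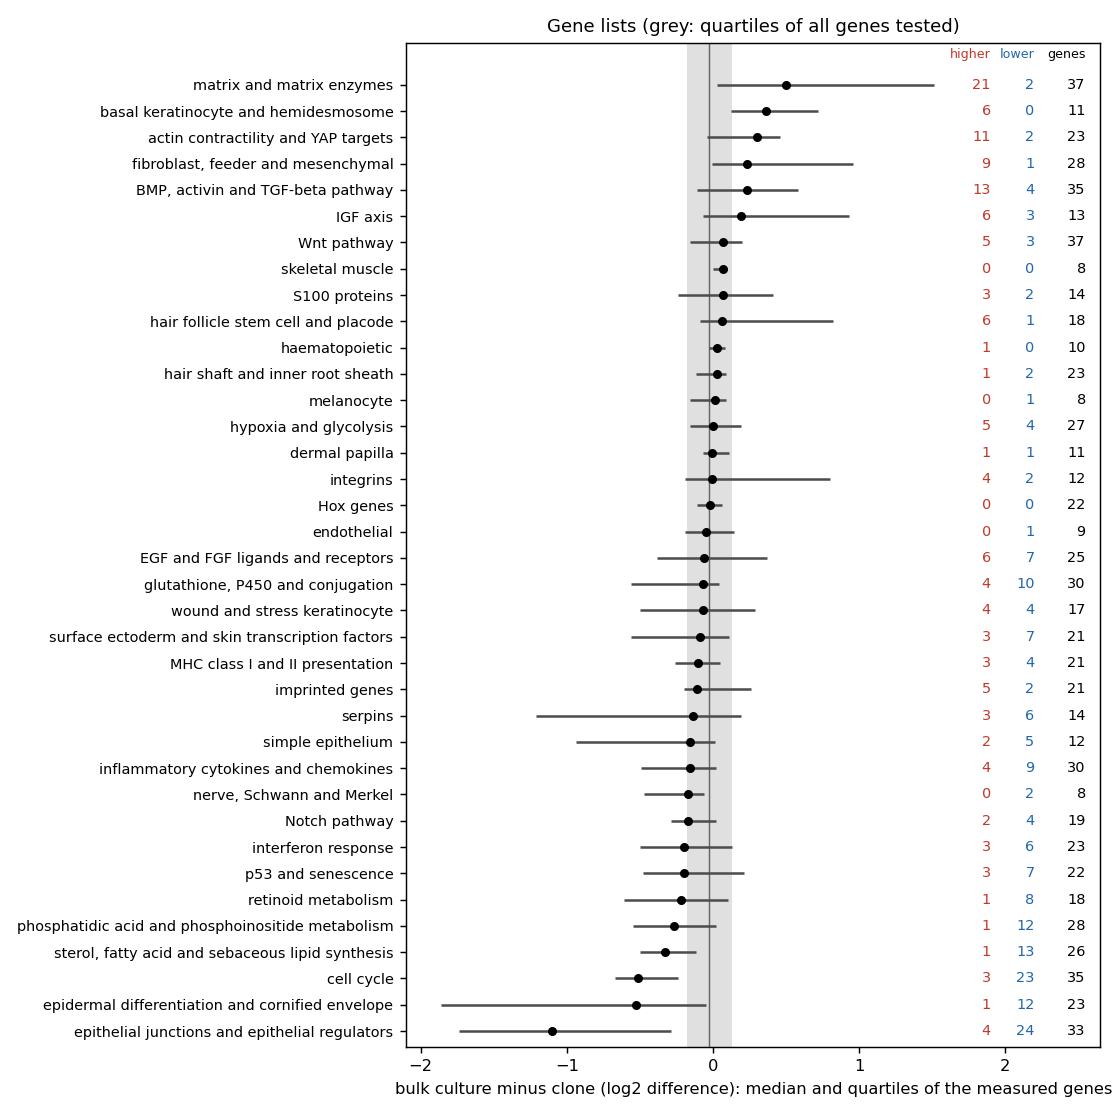
Median (point) and quartiles (line) of the bulk minus clone log2 difference over the measured genes of each list, with the quartiles of all 14511 genes as a grey band; figures at the right give the genes called higher (red), called lower (blue) and measured (black). Junction genes lie lowest, at -1.10, and matrix genes highest, at 0.50.

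The clone lay near the grafted follicle cultures, and the bulk culture apart from them. The root mean square log2 difference over all tested probe sets was 0.464 between bulk culture and clone. From the clone it was 0.229 to the grafted clone and 0.327 to the grafted bulk culture, and from the bulk culture 0.556 and 0.568. For scale, the 18 pairs of cultures within the thymic groups lay 0.298 to 0.512 apart. From the 4 ungrafted thymic cultures the bulk culture lay 0.543 to 0.66 away and the clone 0.464 to 0.563. Of the 667 probe sets called and past 2-fold, the clone was nearer the mean of the grafted follicle cultures in 643. The bulk culture was the highest of the 16 in 227 of the 354 higher probe sets and the lowest in 217 of the 313 lower ones, and the clone was the opposite extreme in 26 and 11. These counts describe probe sets chosen for their difference and test nothing. Over all 14511 genes, the bulk culture lay above the 3 other follicle cultures for 3085 and below them for 6178, so that an extreme position was common.

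The other bulk and clone pairs had fewer large differences. In the grafted follicle pair 3142 probe sets (20.5%) were called and 140 (0.914%) past 2-fold, 82 higher (0.535%) and 58 lower (0.379%). In the 4-month thymic pair 1323 (8.64%) were called and 174 (1.14%) past 2-fold, 124 higher (0.81%) and 50 lower (0.326%). Part of the differences was shared. Of the 354 probe sets higher past 2-fold here, 84 were called higher and 35 lower in the grafted follicle pair. In the thymic pair 112 of them were called higher and 19 lower. Of the 313 lower past 2-fold here, 131 were called lower and 24 higher in the grafted follicle pair, and 121 and 17 in the thymic pair. The grafted bulk culture has an array with a median of 5.78, where all others lay between 5.29 and 5.55, and the median difference of its pair over all genes was 0.16. The difference between bulk culture and clone was itself called different from that of the grafted follicle pair for 3236 probe sets (21.1%), or 1711 after centring of the arrays, and from that of the thymic pair for 2008 (13.1%). The cell cycle list had medians of 0.37 and 0.44 in the grafted follicle and thymic pairs, where it was -0.51 here. The epidermal differentiation list was low in all 3 pairs, with medians of -0.33 and -0.39 there and -0.53 here. Tgm1, Evpl and Cnfn were called lower in the bulk culture of both other pairs (-0.96, -0.67 and -1.24, then -0.74, -0.53 and -1.16). The junction list had medians of -0.19 and -0.08 there, and the matrix list 0.17 and 0.18, against 0.16 and 0 over all genes.

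Single genes fell into different classes in this comparison. For Zeb1 the difference exceeded that of the grafted follicle pair by 2.76 (adjusted p = 1.58e-08) and that of the thymic pair by 2.10 (adjusted p = 8.63e-07). For Cldn1 it lay further down by a log2 difference of -3.20 and -3.11 (adjusted p = 1.01e-12 and 3.66e-13). Timp1 was higher in the bulk culture of all 3 pairs, by 2.0, 1.72 and 1.65, and the differences of 0.28 and 0.35 between pairs did not pass (adjusted p = 0.238 and 0.191). Vim was also higher in all 3, by 1.16, 1.04 and 1.4. Rgs4, Igfbp3, Cd48, Col12a1 and Epb41l3 were called higher past 2-fold in the thymic pair as well (3.04, 2.05, 2.13, 1.77 and 1.80). In the grafted follicle pair these genes differed by 0.01, 0.07, 0.37, 0.72 and 0.29. Ltbp2, Mmp12 and Timp3 were not higher in the thymic pair beyond the spread (-0.65, 0.01 and 0.07). Msln was lower in the bulk culture of all 3 pairs. It lay at 7.23 in the grafted bulk culture and 10.62 in the grafted clone, a difference of -3.39 against -3.41 in the ungrafted pair. In the thymic pair it lay at 10.99 and 11.82, a smaller difference of -0.83 (adjusted p = 4.4e-07), and the difference of -2.57 between these pairs passed (adjusted p = 2.15e-12).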

How the data were processed

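RNA of 16 cultures was hybridized to 32 Affymetrix rat gene arrays, 2 per culture. The authors deposited log2 signals. The submitters' processing notes list RMA and the program Affymetrix Expression Console, and versions are not given in the sources used here. RMA in general scales arrays together and shrinks weak differences toward background. The range of the values, 1.526 to 14.03, is that of a log2 scale, and nothing was transformed again.

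Of 29215 probe sets, the 15316 with exactly 1 gene symbol in the platform annotation (14511 genes) were tested, while 317 had several symbols and 13582 none. RefSeq held 15284 of their gene IDs and 0 symbols were updated. Lists and named genes use the probe set of a gene with the highest mean over all arrays. Of 528 genes with more than 1 probe set, 1 was called in opposite directions and 50 by some probe sets only. Probe sets with a mean under 5 are called dim, and no filter was applied in the main test.

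The main test was limma 3.58.1 in R 4.3.3 (lmFit, eBayes; 1 coefficient per culture, 16 residual degrees of freedom). The culture-spread test used 16 culture means (10 residual degrees of freedom). Differences between pairs were tested as differences of differences in the main fit. Errors are standard errors, with medians of 0.148 (arrays) and 0.253 (cultures). The number of arrays limits the precision. With 15316 simulated probe sets, the array test recovered 22.4%, 85.1% and 100% of log2 changes of 0.5, 1 and 2, with 6 false calls. The culture test recovered 3%, 20.9% and 83.3%, with 2 false calls. The simulation changed a far smaller share of probe sets than the 19.6% called here, so its rates need not hold for these data. Whether both arrays of a culture came from separate RNA or dishes is not stated in the labels.

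Named genes were the 12 largest differences each way with arrays that do not overlap, the 6 largest each way by the culture-spread test, up to 4 members of each list past 2-fold, and a panel. The members, gene lists, panel and promoter motifs were chosen with earlier results of these data known. Alternatives covered scaling, dim probe sets, replicate number as a block, the arrays in the fit, an intensity trend and each array left out.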

Additional observations from a re-analysis of the deposited data

Results flagged for a closer look

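The difference between bulk culture and clone was called different from that of the grafted follicle pair for 3236 probe sets and from that of the 4-month thymic pair for 2008, by a limma test of the difference of differences. The genes below are named genes whose difference here and in another pair were each called, in opposite directions, and whose difference of differences was called too.

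Against the grafted follicle pair, the matrix receptor and matrix genes Itga1, Itga2, Itgb5 and Sparc differed by 2.48, 2.51, 1.84 and 2.69 between pairs. Krt15 differed by 3.88, the epithelial regulator Tp63 by 1.14, the ligand Wnt5a by 1.80 and the cell cycle inhibitor Cdkn2b by 1.69. On the other side stood Epcam at -2.48, the cell cycle gene Rrm2 at -1.22, S100a7a at -1.89, and the interferon response genes Oas1a at -1.91 and Sp100 at -2.69.

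Against the 4-month thymic pair, Krt15 differed by 4.81 and Itgb5 by 1.91. Epcam, Rrm2, Tgfbi, the sulfotransferase Sult1a1 and Gpr15lg stood at -2.37, -1.40, -2.57, -2.58 and -3.92. Krt15, Itgb5, Rrm2 and Epcam were thus opposite to both other pairs. Krt15 was lower in the grafted bulk culture and in the thymic bulk culture than in their clones (-0.65 and -1.57) and higher in the ungrafted follicle bulk culture. For Rrm2 the grafted follicle pair differed by only 0.21 (limma adjusted p = 0.0454), and the median difference of that pair over all genes was 0.16. Its opposite call there cannot be told apart from the shift of the whole pair.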

How the results depend on the processing

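The count of probe sets past an adjusted p of 0.05 stayed within 1.5 times of 3001 under every other choice of scaling, filter, arrays and fit in this paragraph, and was 630 when limma's treat method tested for a log2 size over 0.58, a setting chosen after seeing the data. The count by the culture-spread test was 308 with culture as a random block in place of the means, and 120 with the donor stage of the thymic cultures in the fit. The count that differed from the grafted follicle pair was 1711 with arrays centred on their medians. Without each array in turn, the lone array assumed to vary like the others, the counts ran from 2142 to 2240 (main test), 659 to 680 (with 2-fold), 80 to 90 (culture-spread test), 2434 to 4264 (against the grafted follicle pair, 4264 without YR219P5_RC replicate 2) and 1487 to 1748 (against the thymic pair). Replicate numbers are shared by all cultures but do not pair them: deviations of the bulk culture and the clone correlated at r = 0.0172, within the -0.635 to 0.574 of all 120 pairs of cultures, and with the replicate block the counts were 2937, 667, 3157 and 1960 and changed by less than 1.5 times. Over 117 named genes and 1519 alternative values, 1504 kept direction and side of the threshold, 12 lost their call (Lhx2, Gata3, Krt8 and Lgals7), 3 gained one (Krt14), and 0 changed direction. Centring and a second quantile normalization moved the median difference over all probe sets from -0.026 to -0.029 and -0.007. Among the lists, junction genes called lower ran from 23 to 25 and matrix genes called higher from 17 to 22 over the alternatives of the main test. The design holds 1 bulk culture and 1 clone, so differences between individual cultures and between kinds of culture cannot be told apart.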

Other observations

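Several gene groups gathered after the values were seen are given as values only. Genes that fold and modify collagen in the endoplasmic reticulum were higher in the bulk culture: 15 of 19 were called higher and 1 lower, with 8 higher by 2-fold and a median difference of 0.92. Rcn3, a calcium-binding chaperone of that compartment, had signals of 8.22 and 8.18 in the bulk culture and 5.33 and 5.39 in the clone (difference 2.84 ± 0.21, limma adjusted p = 8.39e-10, culture-spread adjusted p = 3.16e-06). The prolyl isomerases Fkbp10 (2.25 ± 0.16) and Fkbp7 (1.98 ± 0.17) and the prolyl hydroxylase P3h3 (2.05 ± 0.12) were higher too. By the culture-spread test Fkbp7 passed (0.0262), and Fkbp10 and P3h3 did not (0.515 and 0.0629). Fkbp10 was also higher in the thymic bulk culture than in its clone, by 1.75. The exception was P4ha2, at -0.69 ± 0.09 (adjusted p = 5.28e-06), while Plod3, P4ha1 and P4ha3 were not called. The collagens these enzymes act on were not all higher, since Col1a1 and Col3a1 did not pass.

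Some genes of inflammasomes were lower. The inflammatory caspase Casp1 had signals of 4.13 and 4.12 against 6.88 and 6.92 (difference -2.77 ± 0.21, adjusted p = 2.28e-09), and its adaptor Pycard had signals of 5.83 and 5.77 against 7.44 and 7.33 (difference -1.59 ± 0.14, adjusted p = 2.33e-08). Casp1 was dim in the bulk culture, and neither gene passed by the culture-spread test (0.244 and 0.738). Casp4 differed by -0.89 ± 0.26 (adjusted p = 0.0146), whereas the sensor Aim2 and the pore protein gene Gsdmd did not pass (-0.11 ± 0.34 and 0.02 ± 0.15, adjusted p = 0.922 and 0.966). Outside the inflammasome, Il36rn, an antagonist of interleukin-36, differed by -2.97 ± 0.16 (adjusted p = 1.17e-11, culture-spread adjusted p = 0.978).

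Of 24 measured guidance genes picked from the semaphorin, slit and netrin families and their receptors, 11 were higher and 0 lower, against 8.6% and 11% of all probe sets. The list does not hold every member of these families. Its largest differences were those of the netrin receptor Unc5b (2.50 ± 0.15, adjusted p = 6.99e-11) and the ligand Slit3 (2.18 ± 0.21, adjusted p = 9.54e-08). By the culture-spread test Slit3 passed (0.0149) and Unc5b did not (0.463). Among 14 RGS genes, the family of Rgs4, 2 were higher and 1 lower, near the shares of 8.6% and 11% over all probe sets, with Rgs2 at 2.92 ± 0.14 (adjusted p = 1.4e-12) and Rgs3 at -1.01 ± 0.12 (adjusted p = 1.51e-06). Neither Rgs2 nor Rgs3 passed by the culture-spread test (0.635 and 0.738). Among the 13899 probe sets without exactly 1 symbol, 108 were called higher and 94 lower past 2-fold, and they stay unnamed here.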
